A study of Mus musculus with 12 samples.

Results

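The chemokine receptor gene Cxcr5, the coactivator gene Pou2af1 and 8 other genes of the T follicular helper (Tfh) programme were examined in pre-selection thymocytes that carry mutant Bcl11b. The 10 genes are 10 of the 23234 features listed in the expression table. Cxcr5 and Pou2af1 were chosen by their measured rise in the mutants, so their values are described and not tested. Bcl6, Maf, Pdcd1, Icos, Ascl2, Btla, Tox2 and Il21 were chosen by their role in Tfh cells. The question was whether the wider programme moved together with Cxcr5.

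RNA-seq was carried out on 12 libraries of CD24hiTCRβlo CD4+CD8+ (DP) thymocytes of C57BL/6 mice, the stage before positive selection. There were 5 libraries from wild-type newborns, 3 from newborn Bcl11bm/m mice and 4 from Bcl11bfl/fl:Cd4-Cre mice. The Bcl11bm allele is a germline frameshift that yields a truncated, hypomorphic Bcl11b protein without its last zinc finger, and homozygotes die as neonates. In Bcl11bfl/fl:Cd4-Cre mice the Cd4 promoter drives Cre, so that Bcl11b is deleted only around the DP stage, and no age was given for these libraries in particular. The paper states an age of several weeks for mice used in flow cytometry and sorting, without naming these libraries. They may therefore differ in age from the newborn groups. Bcl11b itself was listed at 132 to 292 FPKM in wild-type, 430 to 482 FPKM in Bcl11bm/m and 115 to 140 FPKM in Bcl11bfl/fl:Cd4-Cre libraries, a whole-gene value that separates neither alleles nor exons. Values are FPKM, fragments per kilobase of transcript scaled to sequencing depth, which take transcript length into account and can therefore be compared between genes. Genotypes were taken from the sample titles, since the sample descriptions give Bcl11bm/m for the libraries titled wild-type and Bcl11b+/+ for those titled as the Cd4-Cre deletion. Zbtb7b, which encodes the helper-lineage factor ThPOK, was listed at 0 to 0.215 FPKM in the libraries titled wild-type, 41.1 to 50.4 FPKM in Bcl11bm/m and 9.44 to 56.6 FPKM in Bcl11bfl/fl:Cd4-Cre libraries. The cell population was taken from the sample source and description, whereas the extraction text of the same labels describes a sort of CD4-CD8- (DN) NKT cells. The labelled population was therefore read against its markers, and Cd4, Cd8a and Rag1 were at 281, 591 and 438 FPKM or more in every library. The sources do not say which libraries came from separate animals, so the p-values measure the spread between these libraries, which may be technical.

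Tfh cells are the CD4+ T cells that enter B cell follicles and help B cells in germinal centres. Their programme is led by the repressor Bcl6. The receptor Cxcr5 guides them to follicles along the chemokine Cxcl13, Icos and Pdcd1 (PD-1) tune their contact with B cells, and Il21 is a cytokine by which they act. Pou2af1, also called OCA-B, is a coactivator of octamer-binding factors that is abundant in B cells and also present in Tfh cells. Cxcr5 is likewise abundant on mature B cells.

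Cxcr5 (ENSMUSG00000047880.7) lies on the minus strand of chr9:44319871-44334504 and Pou2af1 (ENSMUSG00000032053.7) on the plus strand of chr9:51021795-51048184 of NCBIM37. Promoters of RefSeq (GRCm38.p6, 250 bases before to 50 after the start site, written in the direction of transcription) were matched for 7 of the 10 members, and not for Cxcr5, Maf and Icos. They were searched on both strands for the Runx motifs ACCACA and ACCGCA, the octamer ATGCAAAT and the E-box CAGGTG, which 22.4%, 1.74% and 20.2% of the 32851 promoters of that length hold. The promoters of Pou2af1, which moved in the same direction as Cxcr5, of Tox2, which rose in Bcl11bfl/fl:Cd4-Cre cells, and of Pdcd1, which fell in Bcl11bm/m cells, are given, with the only motif match, an E-box read on the opposite strand 47 bases before the start site of Tox2, in capitals.
Pou2af1, chr9:51213440-51213739, plus strand: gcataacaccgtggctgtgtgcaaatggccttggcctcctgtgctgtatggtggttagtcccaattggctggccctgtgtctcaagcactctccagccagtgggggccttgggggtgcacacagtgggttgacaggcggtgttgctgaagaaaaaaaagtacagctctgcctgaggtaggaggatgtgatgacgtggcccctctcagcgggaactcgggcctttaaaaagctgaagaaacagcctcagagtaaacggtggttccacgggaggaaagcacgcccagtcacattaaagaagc
Tox2, chr2:163203033-163203332, plus strand, 1 of 5 start sites listed: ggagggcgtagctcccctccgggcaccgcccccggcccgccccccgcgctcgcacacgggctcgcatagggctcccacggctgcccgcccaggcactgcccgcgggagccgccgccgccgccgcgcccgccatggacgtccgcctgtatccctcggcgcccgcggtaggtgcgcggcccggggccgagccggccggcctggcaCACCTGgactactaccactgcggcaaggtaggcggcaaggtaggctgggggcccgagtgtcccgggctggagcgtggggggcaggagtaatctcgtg
Pdcd1, chr1:94052504-94052803, minus strand: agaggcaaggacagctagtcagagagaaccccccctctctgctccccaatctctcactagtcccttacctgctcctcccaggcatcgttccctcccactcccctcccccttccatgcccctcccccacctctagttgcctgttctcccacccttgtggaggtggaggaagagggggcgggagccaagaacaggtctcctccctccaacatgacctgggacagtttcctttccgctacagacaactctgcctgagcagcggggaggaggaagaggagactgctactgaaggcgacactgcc
Among the other members a Runx motif ACCACA was found in the promoter of Btla and a CAGGTG E-box in that of Ascl2, whereas the octamer was found in none of the 12 member promoters searched. The promoters at the other listed start sites of Tox2 held none of these motifs. A match is a description of letters and not of binding.

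Cxcr5 was near the lower limit of detection in wild-type cells and was high in both mutants. In the order of the replicate numbers, the wild-type libraries held 0.298, 0.804, 0.312, 0.101 and 0.204 FPKM. The Bcl11bm/m libraries held 273, 214 and 206 FPKM, and those of Bcl11bfl/fl:Cd4-Cre mice 45.5, 14.6, 122 and 64.6 FPKM. The 3 groups did not overlap. Read back to estimated fragments, the wild-type values rest on 1 to 12 fragments per library and 24 in all, against 1789 to 2119 per Bcl11bm/m library and 380 to 5133 per Bcl11bfl/fl:Cd4-Cre library. Pooled over libraries this gave 612 times the wild-type level in Bcl11bm/m cells (95% exact interval 411 to 955) and 163 times in Bcl11bfl/fl:Cd4-Cre cells (109 to 254), intervals that cover counting error only. Wild-type replicate 2 alone held 12 of the 24 fragments, and without it the ratios were 946 and 252, an alternative chosen after seeing the data. On the log2(FPKM + 1) scale, which understates the change of a gene this low in wild-type cells, the difference from wild-type was 7.44 (SE 0.19) in Bcl11bm/m and 5.21 (SE 0.48) in Bcl11bfl/fl:Cd4-Cre cells. In bulk RNA, more cells with the transcript and more transcript per cell cannot be told apart.

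Pou2af1 followed the same order of group means. It was above Cxcr5 in every wild-type library and below it in every mutant library. Wild-type cells gave 0.547, 2.33, 1.70, 1.14 and 1.18 FPKM, again in replicate order as in all lists of values that follow, Bcl11bm/m cells 14.1, 13.0 and 12.6 FPKM, and Bcl11bfl/fl:Cd4-Cre cells 3.22, 1.81, 11.8 and 2.83 FPKM. All 3 Bcl11bm/m libraries lay above every other library, whereas Bcl11bfl/fl:Cd4-Cre replicate 2 lay within the wild-type range. Wild-type cells averaged 1.38 ± 0.668 FPKM (SD, n = 5). Bcl11bm/m cells averaged 13.2 ± 0.763 FPKM (SD, n = 3), and the Cd4-Cre deletion gave 4.91 ± 4.61 FPKM (SD, n = 4). The log2 difference from wild-type was 2.63 (SE 0.23) in Bcl11bm/m cells, and that in Bcl11bfl/fl:Cd4-Cre cells, 1.09 (SE 0.40), was 0.63 without replicate 3.

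**Figure D1:**
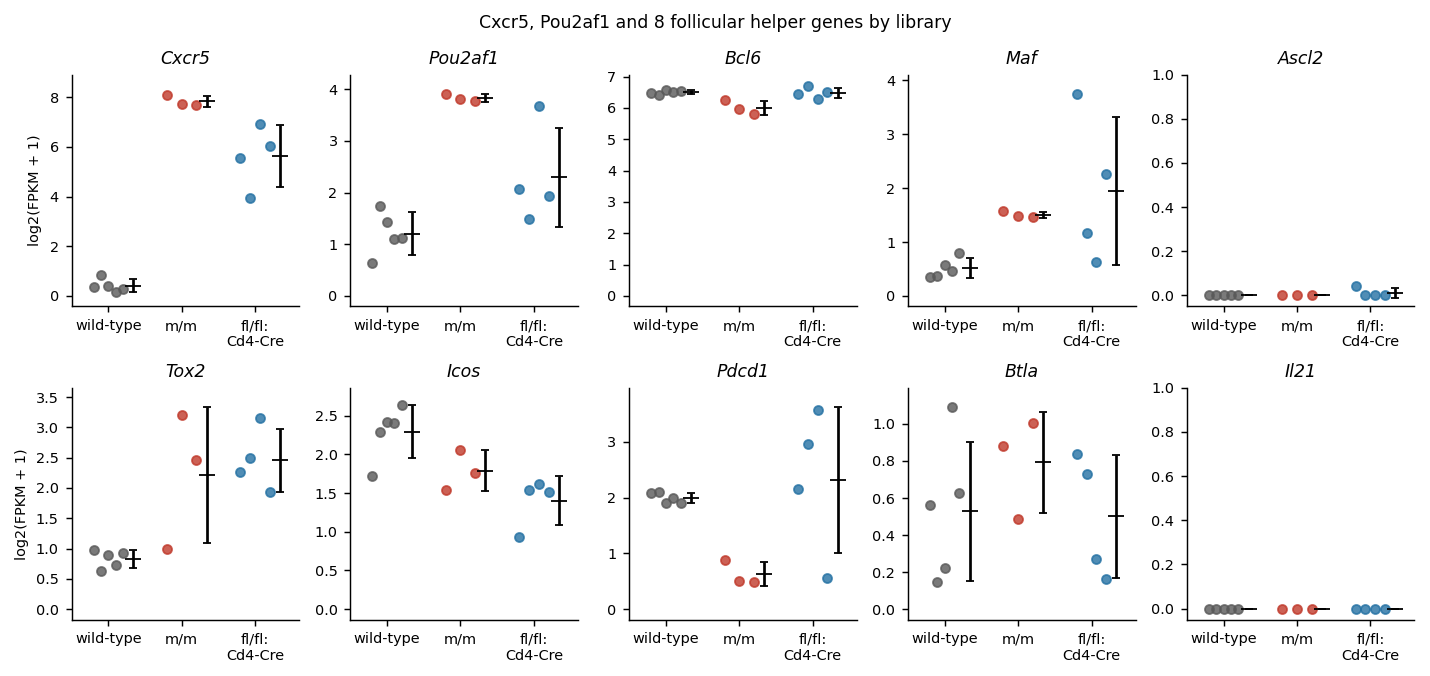
Each panel plots log2(FPKM + 1) of 1 gene for the 12 libraries (points, in replicate order), with the group mean and SD in black; m/m is Bcl11bm/m, fl/fl:Cd4-Cre is Bcl11bfl/fl:Cd4-Cre, and the vertical scale differs between panels. Cxcr5 separates all 3 groups, Bcl6 stays within 55.6 to 102 FPKM in all libraries, and Ascl2 and Il21 are at or next to 0.

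The other 8 members did not share 1 direction with Cxcr5. Of these 8, 5 passed a filter that asked for 1 FPKM or more on average (Bcl6, Maf, Tox2, Icos and Pdcd1), and Btla, Ascl2 and Il21 did not. Maf and Tox2 were under 1 FPKM in all wild-type libraries and passed the filter only through mutant libraries. Each therefore had to be higher in a mutant to be tested, so the higher calls among the members are descriptive. In Bcl11bm/m against wild-type cells, limma called 3 of the 5 tested members at an adjusted p under 0.05, 1 higher (Maf) and 2 lower (Bcl6 and Pdcd1). Over all 10780 features tested, 17.3% were called in that comparison, 9.92% higher and 7.39% lower. In Bcl11bfl/fl:Cd4-Cre against wild-type cells 2 members were called, 1 higher (Tox2) and 1 lower (Icos), against 14.5% of all features, 4.65% higher and 9.86% lower. The median log2 difference of the 5 tested members was -0.50 in Bcl11bm/m and 0.31 in Bcl11bfl/fl:Cd4-Cre cells, and over all features it was -0.02 and -0.09. Both comparisons use the same 5 wild-type libraries.

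Bcl6, the repressor that leads the programme, was already abundant in wild-type DP cells and was called higher in neither mutant. Wild-type libraries held 87.8, 84.2, 94.7, 90.0 and 93.0 FPKM, Bcl11bm/m libraries 75.3, 60.9 and 55.6 FPKM and Bcl11bfl/fl:Cd4-Cre libraries 85.3, 102, 77.9 and 91.0 FPKM. All 3 Bcl11bm/m libraries lay below all the others, and the Bcl11bfl/fl:Cd4-Cre libraries spanned the wild-type range. It fell by 0.50 on the log2 scale in Bcl11bm/m cells (SE 0.12, limma adjusted p = 0.0207), a call that was lost with quantile normalization and without wild-type replicate 5 or Bcl11bm/m replicate 2 or 3 (highest adjusted p among these 0.0919). With the Cd4-Cre deletion the difference was -0.02 (95% interval -0.26 to 0.22, limma adjusted p = 0.922).

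Maf, a bZIP factor that drives Il21 in Tfh cells and also belongs to the programme of IL-17-producing γδ T cells, was low in wild-type cells. Wild-type libraries held 0.281, 0.289, 0.495, 0.383 and 0.736 FPKM, Bcl11bm/m libraries 1.97, 1.80 and 1.75 FPKM and Bcl11bfl/fl:Cd4-Cre libraries 12.4, 1.24, 0.551 and 3.82 FPKM. Bcl11bm/m libraries all lay above wild-type, but the Bcl11bfl/fl:Cd4-Cre libraries were spread 22.5-fold and replicate 3, the one with the most Cxcr5, lay within the wild-type range. The rise in Bcl11bm/m cells was 0.99 on the log2 scale (SE 0.12, limma adjusted p = 0.000971), and this call was lost when all 3 groups were fitted together (adjusted p = 0.209). Maf passed the filter only through mutant libraries, so that it had to be higher there to be tested. With no filter on low values the limma adjusted p of this rise was 0.00237. In Bcl11bfl/fl:Cd4-Cre cells the difference of 1.44 (95% interval 0.28 to 2.6) did not pass (limma adjusted p = 0.0931), and it rested on single libraries, with 1.88 (adjusted p = 0.0455) without replicate 3 and 0.84 (adjusted p = 0.15) without replicate 1. With library quality weights it passed as well (1.86, adjusted p = 0.0298).

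Tox2, an HMG-box factor that promotes the Tfh fate, was the only one of the 8 called higher in Bcl11bfl/fl:Cd4-Cre cells. Wild-type libraries held 0.976, 0.549, 0.851, 0.663 and 0.894 FPKM, Bcl11bm/m libraries 0.993, 8.23 and 4.49 FPKM and Bcl11bfl/fl:Cd4-Cre libraries 3.82, 4.63, 7.92 and 2.8 FPKM. Bcl11bfl/fl:Cd4-Cre libraries all lay above wild-type, and so did those of Bcl11bm/m, of which replicate 1 exceeded the highest wild-type library only slightly (0.993 against 0.976 FPKM). The rise in Bcl11bfl/fl:Cd4-Cre cells was 1.63 (SE 0.23, limma adjusted p = 0.00414). Tox2 passed the filter only through mutant libraries, so that it had to be higher there to be tested. With no filter on low values the limma adjusted p of this rise was 0.0124. In Bcl11bm/m cells the difference was 1.39 (95% interval 0.43 to 2.34, limma adjusted p = 0.0543), and it moved to 2.0 (adjusted p = 0.00144) without replicate 1 and to 0.89 (adjusted p = 0.169) without replicate 2. It also passed when the 3 groups were fitted together (1.39, adjusted p = 0.03) and with library quality weights (1.83, adjusted p = 0.00355). Ascl2, a basic helix-loop-helix factor that induces Cxcr5 in Tfh cells, was listed at 0 in 11 libraries and at 0.0308 FPKM, an estimated 2 fragments, in Bcl11bfl/fl:Cd4-Cre replicate 1. A level of 3 fragments corresponds to 0.307 to 0.539 FPKM of Ascl2 in wild-type, 0.503 to 0.781 FPKM in Bcl11bm/m and 0.0471 to 0.196 FPKM in Bcl11bfl/fl:Cd4-Cre libraries.

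Of the 3 receptors among the members, Pdcd1 and Icos were called higher in neither mutant and Btla was not tested. Pdcd1, the inhibitory receptor PD-1, gave 3.24, 3.28, 2.76, 2.97 and 2.76 FPKM in the wild-type libraries, 0.846, 0.421 and 0.410 FPKM in Bcl11bm/m and 3.47, 6.79, 10.9 and 0.469 FPKM with the Cd4-Cre deletion. It fell by 1.37 on the log2 scale in Bcl11bm/m cells (SE 0.12, limma adjusted p = 0.000273), where its values rest on only 3 or 4 estimated fragments per library, and the call was lost when the 3 groups were fitted together (adjusted p = 0.0717). Of the Bcl11bfl/fl:Cd4-Cre libraries, 3 lay above wild-type and replicate 4 was as low as Bcl11bm/m, and the difference of 0.31 (95% interval -0.78 to 1.40) did not pass (limma adjusted p = 0.705). This value had no stable direction, since it was 0.90 (adjusted p = 0.0791) without replicate 4, 0.10 (adjusted p = 0.925) without replicate 2 and -0.11 (adjusted p = 0.909) without replicate 3.

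Icos, the inducible costimulatory receptor that sustains Tfh cells, gave 2.31, 3.87, 4.35, 4.32 and 5.23 FPKM in the wild-type libraries, 1.92, 3.18 and 2.40 FPKM in Bcl11bm/m and 0.911, 1.91, 2.07 and 1.86 FPKM with the Cd4-Cre deletion. Every Bcl11bfl/fl:Cd4-Cre library lay below wild-type, and Icos fell by 0.89 there (SE 0.21, limma adjusted p = 0.0221). That call was lost without wild-type replicate 3 or 5 or Bcl11bfl/fl:Cd4-Cre replicate 1 or 4 (highest adjusted p 0.0658). In Bcl11bm/m cells the difference of -0.51 did not pass (limma adjusted p = 0.162), though it did without wild-type replicate 1 (-0.65, adjusted p = 0.0289), with quantile normalization (-0.64, adjusted p = 0.038) and with library quality weights (adjusted p = 0.031). Btla, an inhibitory receptor for Tnfrsf14, ranged from 0.107 to 1.13 FPKM in wild-type, from 0.4 to 1.01 FPKM in Bcl11bm/m and from 0.121 to 0.788 FPKM in Bcl11bfl/fl:Cd4-Cre cells, with overlapping groups and no test. Il21 was listed at 0 in all 12 libraries, where 3 fragments correspond to 0.0231 to 0.384 FPKM.

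**Figure D2:**
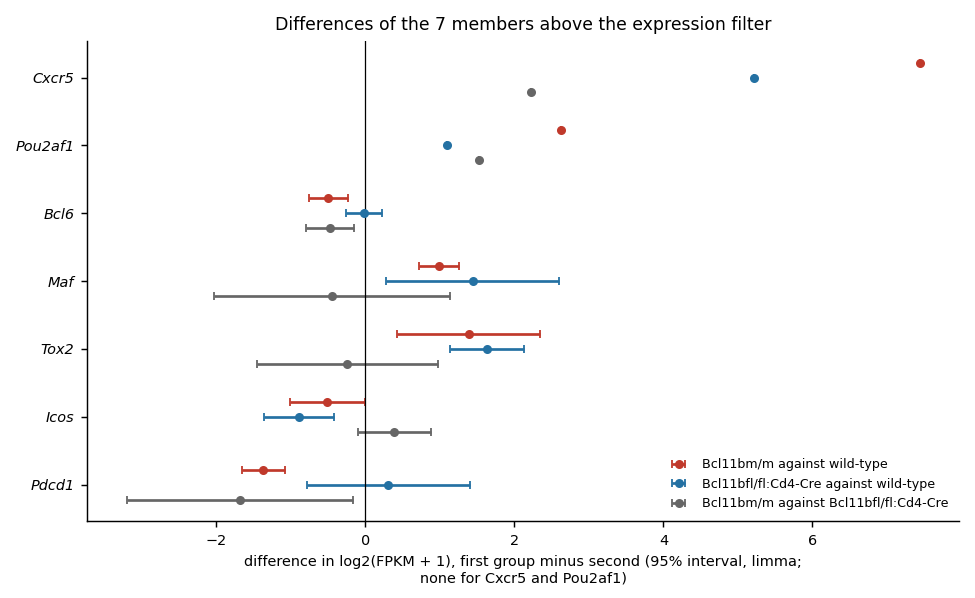
Points are differences in log2(FPKM + 1) between group means for the 7 members above the filter, and bars the 95% interval of limma, drawn for the 5 members not chosen by their values. Cxcr5 differs from wild-type by 7.44 and 5.21, while the 5 others lie between -1.37 and 1.63 in the comparisons with wild-type. The direct comparison of the mutants is also drawn, where these 5 lie between -1.68 (Pdcd1) and 0.39 (Icos).

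The 2 mutants were also compared directly. Cxcr5 was 2.22 higher (SE 0.62) and Pou2af1 1.53 higher (SE 0.47) on the log2 scale in the hypomorph, and for both genes its 3 libraries exceeded all 4 libraries of the Cd4-Cre deletion. None of the 5 tested members was called by limma (0 of 5, and 2 of 5, Bcl6 and Pdcd1, at an unadjusted p under 0.05), against 10.2% of all features, 7.63% higher and 2.6% lower in Bcl11bm/m cells. The difference was -0.48 for Bcl6 (95% interval -0.80 to -0.15, adjusted p = 0.0703), -1.68 for Pdcd1 (-3.20 to -0.16, adjusted p = 0.139) and 0.39 for Icos (-0.10 to 0.88, adjusted p = 0.269). For Maf it was -0.45 (-2.03 to 1.14, adjusted p = 0.702) and for Tox2 -0.24 (-1.46 to 0.98, adjusted p = 0.792), intervals wide enough to hold sizeable differences in either direction. The sign turned for Maf without Bcl11bfl/fl:Cd4-Cre replicate 1 (0.15). For Tox2 it turned without Bcl11bm/m replicate 1 (0.37) and with library quality weights (0.19). Bcl6 passed with median-ratio scaling, with quantile normalization, with all 3 groups in the fit, with library quality weights and without Bcl11bm/m replicate 1 (adjusted p 0.0125 to 0.0435), and Pdcd1 passed without Bcl11bfl/fl:Cd4-Cre replicate 4 (-2.27, adjusted p = 0.0252).

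Scaling bears on how these background shares divide. Without scaling, 32.0% of the calls in Bcl11bfl/fl:Cd4-Cre against wild-type cells were higher, against 46.4% with median-ratio scaling, and in the direct comparison 74.6% against 51.6%. This scaling shifted the median over all features by 0.10 in these 2 comparisons, and no member with a called difference changed direction under any of the alternatives tried.

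Within the Bcl11bfl/fl:Cd4-Cre group the members did not share 1 order of libraries. Replicate 3 was highest and replicate 2 lowest for both Cxcr5 (8.39-fold between them) and Pou2af1 (6.51-fold), and the same held for Zbtb7b, listed at 33.1, 9.44, 56.6 and 23.8 FPKM. Pdcd1 and Tox2 had the order of replicates 3, 2, 1 and 4. Klf2 and Id2 had exactly the order of Cxcr5, replicates 3, 4, 1 and 2. Maf had the order 1, 4, 2 and 3, as did Blk, Sox13, Spib and Ptcra, the last a pre-selection marker. Most pre-selection DP markers went another way, and of the 11, 8 were highest in replicate 2, 2 in replicate 1 and 1 in replicate 4. Blk, a Src family kinase of B cells and γδ T cells, was listed at 9.91, 0.880, 0.525 and 3.40 FPKM, and Sox13, a factor of γδ T cells, at 13.9, 1.15, 0.478 and 3.29 FPKM. Of the 14 B cell markers 12 were highest in replicate 1, with Blnk highest in replicate 2 and Vpreb3 in replicate 3. The innate and γδ T cell markers were divided, 4 highest in replicate 1 and 3 in replicate 3 (Klrb1c, Tbx21 and Il2rb), with Klrb1c at 5.14, 0.299, 21.8 and 2.11 FPKM. Of the 7 mature thymocyte markers 5 were highest in replicate 3 and 2 in replicate 2. These orders are a description of 4 libraries, and the part of other cells in them was not tested.

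**Figure D3:**
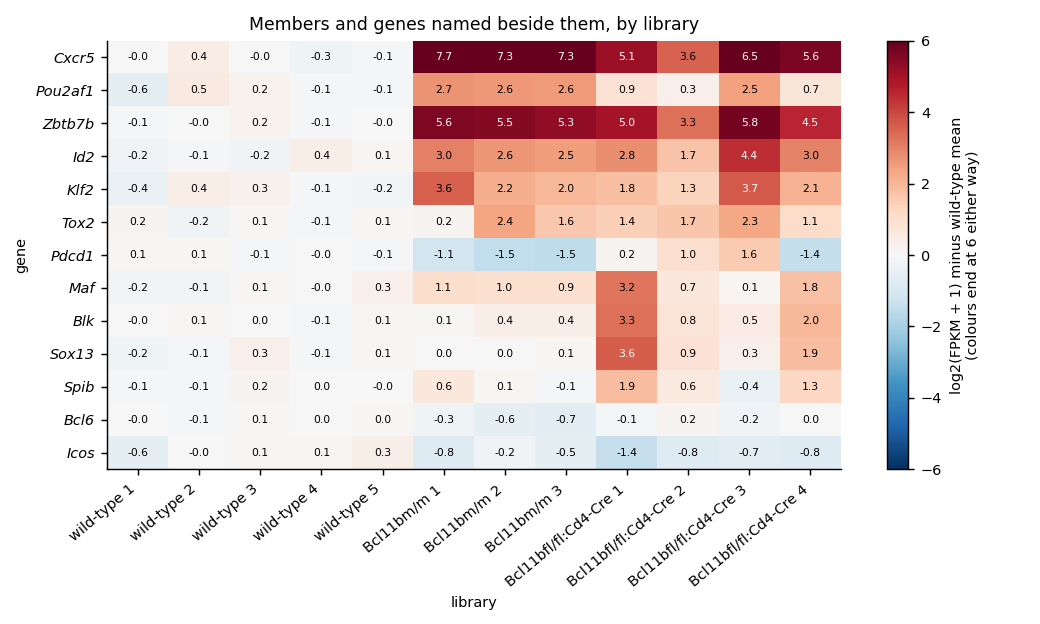
Colours and printed numbers give log2(FPKM + 1) of each gene in each library minus the wild-type mean of that gene. In Bcl11bfl/fl:Cd4-Cre libraries Cxcr5, Pou2af1 and Zbtb7b are highest in replicate 3, while Maf, Blk, Sox13 and Spib are highest in replicate 1.

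A wider list of 45 genes linked to Tfh cells was read by role, of which 33 passed the filter. In Bcl11bm/m against wild-type cells 12 were called, 10 higher and 2 lower (36.4% of those tested, against 17.3% of all features). In Bcl11bfl/fl:Cd4-Cre against wild-type cells 9 were called, 7 higher and 2 lower (27.3% against 14.5%), and in the direct comparison 7, of which 6 were higher and 1 lower in Bcl11bm/m cells (21.2% against 10.2%). The median log2 difference of the 33 was 0.38, 0.02 and 0.15 in the 3 comparisons, against -0.02, -0.09 and 0.09 over all features. Because the list was drawn up with results of these data known, its counts are descriptive. The 9 calls were 5 without wild-type replicate 2 or 5 or without Bcl11bfl/fl:Cd4-Cre replicate 1, 3 or 4, the 12 calls were 8 without Bcl11bm/m replicate 2, and the 7 calls between the mutants were 4 and 3 without Bcl11bm/m replicates 2 and 3.

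The group with the highest median was made of genes that oppose the Tfh fate (1.14 in Bcl11bm/m and 0.24 in Bcl11bfl/fl:Cd4-Cre cells). Of its 8 tested genes, 4 rose in Bcl11bm/m cells (9.92% of all features were called higher) and 3 in Bcl11bfl/fl:Cd4-Cre cells (37.5%, against 4.65%). None was called lower in either, where 7.39% and 9.86% of all features were. In both mutants 6 of the 8 differences were positive and 2, those of Stat5a (-0.38 and -0.39) and Stat5b (-0.36 and -0.28), negative. Of the untested genes of this group, Prdm1 averaged 0.539 FPKM in wild-type, 0.147 FPKM in Bcl11bm/m and 0.371 FPKM in Bcl11bfl/fl:Cd4-Cre cells. Il2rb averaged 0.109, 0.305 and 2.56 FPKM in the same order. Id2, an inhibitor of E proteins, was listed at 3.05 to 5.25 FPKM in wild-type, 26.1 to 37.3 FPKM in Bcl11bm/m and 14.3 to 99.0 FPKM in Bcl11bfl/fl:Cd4-Cre cells. It rose by 2.73 (limma adjusted p = 6.61e-05) and 2.96 (adjusted p = 0.00442). Klf2, which maintains S1pr1 and restrains Tfh differentiation, rose by 2.59 (adjusted p = 0.00216) and 2.23 (adjusted p = 0.00885), and Foxo1, a forkhead factor upstream of Klf2, by 1.31 (adjusted p = 0.00254) and 0.96 (adjusted p = 0.0161). Il2ra, the IL-2 receptor α chain whose signals oppose Bcl6, rose in Bcl11bm/m cells from 2.68 to 5.25 FPKM in wild-type to 117, 38.7 and 33.5 FPKM (limma adjusted p = 0.000727). After Cd4-Cre deletion Il2ra was at 2.19 to 8.18 FPKM (difference 0.19, adjusted p = 0.723), and the mutants differed by 3.37 (adjusted p = 0.0121).

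Of 9 tested factors that promote Tfh cells, 2 rose in Bcl11bm/m cells, namely Batf, an AP-1 factor (1.04, limma adjusted p = 0.0219), and the E protein gene Tcf12 (0.85, adjusted p = 0.0259). Both were higher, a share of 22.2% against 9.92% of all features called higher. After Cd4-Cre deletion 2 of the 9 were called higher and 1 lower, against 4.65% and 9.86% of all features. Batf also rose in Bcl11bfl/fl:Cd4-Cre cells by 0.88 (adjusted p = 0.027), as did Stat3, which carries IL-6 and IL-21 signals, by 0.47 (adjusted p = 0.0469), whereas the E protein gene Tcf3 fell by 0.48 (adjusted p = 0.0309).

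Among 7 tested surface receptors and effectors, 2 were called in each mutant (28.6%, against 17.3% and 14.5% of all features). Slamf6, a SLAM receptor used in T cell and B cell contact, rose in both (0.79, limma adjusted p = 0.0242 and 0.51, adjusted p = 0.0483). Slamf1, another SLAM receptor, fell by 1.65 in Bcl11bm/m cells (adjusted p = 0.000145), and the costimulatory receptor gene Cd28 fell by 1.08 in Bcl11bfl/fl:Cd4-Cre cells (adjusted p = 0.00654).

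Of 6 tested positioning receptors, 2 were called higher in Bcl11bm/m cells (33.3%, against 9.92% of all features) and 1 in Bcl11bfl/fl:Cd4-Cre cells (16.7% against 4.65%). Gpr183 (EBI2), which draws cells to the outer follicle and is low in mature Tfh cells, was higher in both mutants. It was at 0.105 to 0.640 FPKM in wild-type, 7.07 to 8.67 FPKM in Bcl11bm/m and 4.35 to 12.2 FPKM in Bcl11bfl/fl:Cd4-Cre cells (differences 2.70, limma adjusted p = 3.5e-05, and 2.57, adjusted p = 0.0016). With a wild-type mean of 0.357 FPKM it passed the filter only through the mutant libraries, so that it had to differ to be tested, unlike the other 32 wider-list genes. Among 3 tested ligands and receptors of the members, 2 were called in Bcl11bm/m cells (66.7%, against 17.3% of all features). The Btla partner gene Tnfrsf14 rose by 0.77 (limma adjusted p = 0.031) and Il21r, the receptor of Il21, fell by 1.41 (adjusted p = 0.00933) in Bcl11bm/m cells, and none was called by limma in Bcl11bfl/fl:Cd4-Cre cells (0 of 3, and 1 of 3 at an unadjusted p under 0.05, against 14.5% of all features).

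**Figure D4:**
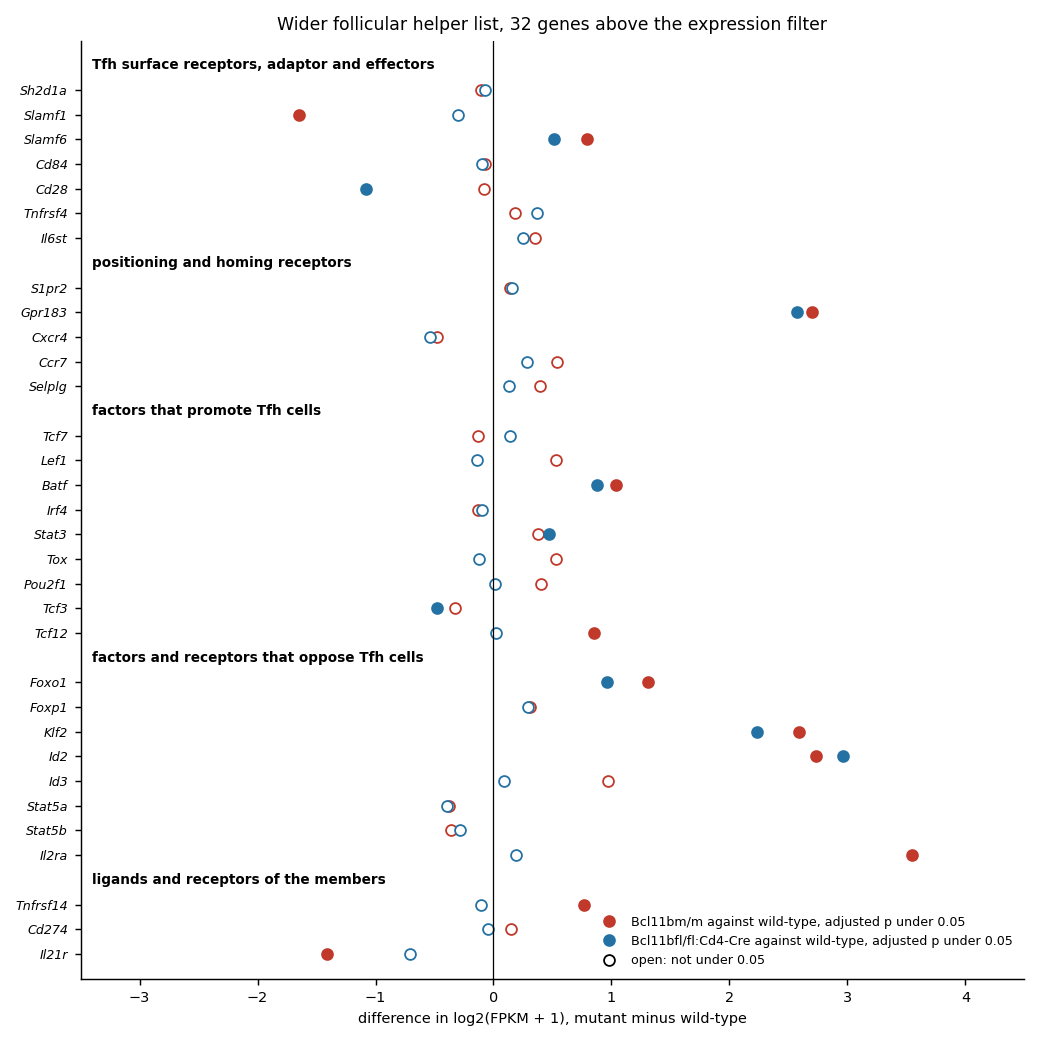
Points give the difference in log2(FPKM + 1) between each mutant and wild-type for 32 of the 33 wider-list genes above the filter, grouped by role; filled points have a limma adjusted p under 0.05. The points farthest to the right are Il2ra (3.55, Bcl11bm/m), Id2, Gpr183 and Klf2, of which Gpr183 is a positioning receptor and the others oppose Tfh cells.

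Cxcr5 and Pou2af1 are also B cell genes, so B cell transcripts were read beside them. In Bcl11bm/m replicate 3, Ms4a1 and Pax5 were listed at 0 and Cd79a at 0.210 FPKM, with Cxcr5 at 206 FPKM and Pou2af1 at 12.6 FPKM. Other markers were above the wild-type range in the same library, with Vpreb3, a pre-B cell receptor partner, at 2.37 FPKM (at most 1.08 in wild-type), the IgE receptor gene Fcer2a at 1.68 FPKM (at most 1.36) and Blk at 0.416 FPKM (at most 0.145). Bcl11bm/m replicate 1 held more of some, with Cd79a at 10.7 and Ms4a1 at 1.97 FPKM, and in Bcl11bfl/fl:Cd4-Cre libraries Cd79a was at 0.911 to 3.92 FPKM and differed by 1.02 (limma adjusted p = 0.0237). The summed level of the 14 B cell markers was 18.2 to 25.4 FPKM in wild-type, 15.4 to 47.1 FPKM in Bcl11bm/m and 16.9 to 49.0 FPKM in Bcl11bfl/fl:Cd4-Cre cells. Most of the wild-type sum came from Cd79b, at 12.4 to 20.7 FPKM. The sum was the lowest of its group in Bcl11bfl/fl:Cd4-Cre replicate 3, where Cxcr5 and Pou2af1 were highest in that group, with Cd79b at 9.78 FPKM, whereas Vpreb3 was the highest of the group there at 2.0 FPKM. Of the 7 tested, 0 were called by limma in Bcl11bm/m cells (17.3% of all features were), and the 4 at an unadjusted p under 0.05 (Blk, Cd22, Fcer2a and Vpreb3) were all higher. After Cd4-Cre deletion 2, Cd79a and Blk, were called higher (28.6%, against 4.65% of all features). Of the 7, 5 averaged under 1 FPKM in wild-type cells and passed the filter only through mutant libraries, Cd79a (0.383 FPKM) and Blk (0.0921 FPKM) among them.

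Transcripts used as markers of other cell types and of thymocyte stages also differed between the groups. The 8 innate and γδ T cell markers summed to 0.249 to 1.56 FPKM in wild-type, 110 to 158 FPKM in Bcl11bm/m and 5.48 to 67.2 FPKM in Bcl11bfl/fl:Cd4-Cre cells. Nearly all of the Bcl11bm/m sum came from Cd163l1 (60.8, 59.0 and 36.3 FPKM) and 5830411N06Rik (48.3, 91.2 and 75.3 FPKM). Of the 8, 5 were under 1 FPKM in every Bcl11bm/m library, among them Sox13 (difference 0.06, limma adjusted p = 0.781). Of the 4 tested, 3 were called higher in Bcl11bm/m cells (Cd163l1, 5830411N06Rik and Klrb1c), against 9.92% of all features, and 1 in Bcl11bfl/fl:Cd4-Cre cells (5830411N06Rik), against 4.65%. These genes averaged 0.0201, 0.0788 and 0.155 FPKM in wild-type cells and were tested only because the mutant libraries carried them past the filter. The 7 mature thymocyte markers summed to 152 to 279, 260 to 374 and 101 to 253 FPKM. Of these 7, 4 were called higher and 1, Cd5, lower (-1.37, limma adjusted p = 0.0122) in Bcl11bm/m cells, and 3 were called higher and 1, Cd69, lower (-1.46, adjusted p = 0.0356) in Bcl11bfl/fl:Cd4-Cre cells. The shares called in either direction were 71.4% and 57.1%, against 17.3% and 14.5% of all features. S1pr1, Klf2 and Il7r were higher in both mutants, with S1pr1 and Il7r past the filter only through the mutant libraries (wild-type means 0.0216 and 0.0475 FPKM). The 8 myeloid and dendritic markers summed to 10.1 to 14.2, 15.3 to 56.4 and 2.71 to 10.8 FPKM, highest in Bcl11bm/m replicate 1, with Mpeg1 and Fcgr3 higher in Bcl11bm/m and Lyz2 and Mpeg1 lower in Bcl11bfl/fl:Cd4-Cre cells. Lyz2 alone was at 37.7 FPKM in Bcl11bm/m replicate 1. Of the 5 tested, 4 differences were positive in Bcl11bm/m cells and 1, that of Itgam, was negative (-0.97, limma adjusted p = 0.14). Mpeg1 and Fcgr3 averaged 0.711 and 0.230 FPKM in wild-type cells and likewise passed through mutant libraries. All 11 pre-selection DP markers, Cd4, Cd8a and Rag1 among them, were present in every group, and 7 of them fell in Bcl11bm/m cells (63.6%, against 7.39% of all features called lower) and 2 in Bcl11bfl/fl:Cd4-Cre cells (18.2% against 9.86%). The part of these differences in the values of Cxcr5, Pou2af1 and the other members was not tested.

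The neighbours of Cxcr5 on chromosome 9 were read beside it. Bcl9l, a coactivator gene of β-catenin whose 3′ end lies 1.4 kb from that of Cxcr5 on the opposite strand, was listed at 3.47 to 8.86 FPKM in wild-type, 35.6 to 38.6 FPKM in Bcl11bm/m and 14.4 to 34.3 FPKM in Bcl11bfl/fl:Cd4-Cre cells. It rose by 2.40 (limma adjusted p = 0.00044) and 1.77 (adjusted p = 0.00523). On the other side, 78.5 kb away, Ddx6, an RNA helicase gene, rose by 1.09 in Bcl11bm/m cells (adjusted p = 0.000903), while its difference of 0.33 in Bcl11bfl/fl:Cd4-Cre cells did not pass (adjusted p = 0.148). Foxr1, at 70.9 kb, did not pass in either (0.30, adjusted p = 0.326 and 0.10, adjusted p = 0.658), and Upk2, Treh and Phldb1 were at most 0.397 FPKM throughout. Over all features, 9.92% were called higher in Bcl11bm/m and 4.65% in Bcl11bfl/fl:Cd4-Cre cells. A link between the differences of these neighbours and that of Cxcr5 was not tested. The 6 nearest listed genes of Pou2af1 (Btg4, Mir34b, Mir34c, Gm684, 1810046K07Rik and Arhgap20) were at most 0.686 FPKM in every library.

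The features whose profile over the 12 libraries was nearest to that of Cxcr5 were sought among the 10780 above the filter, with each log2(FPKM + 1) profile scaled from 0 to 1 and compared by root-mean-square distance. They were Itga9 (0.028), an integrin α subunit gene, Appl2 (0.065), an endosomal adaptor gene, 2900026A02Rik (0.07), Atp8b4 (0.078), a phospholipid flippase gene, and Zbtb7b (0.081). Itga9 was at 0.199 to 0.737 FPKM in wild-type, 26.1 to 31.2 FPKM in Bcl11bm/m and 4.67 to 16.6 FPKM in Bcl11bfl/fl:Cd4-Cre cells. Nearest to Pou2af1 were Filip1l (0.065), Sh2d3c (0.065), Pias3 (0.082), Fbxw8 (0.088) and Serpinb9 (0.088). Pou2af1 ranked 136 in distance from Cxcr5 (0.176). Of the tested members Tox2 ranked 842 (0.284), Maf 2486 (0.409), Pdcd1 7784 (0.597), Icos 8683 (0.623) and Bcl6 9542 (0.652). These distances describe 12 libraries in 3 groups, and any gene that is high in Bcl11bm/m, intermediate in Bcl11bfl/fl:Cd4-Cre and low in wild-type cells comes out near.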

How the data were processed

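The deposited FPKM were made by the authors with TopHat2 for mapping, Cufflinks for quantification and the iGenome gene annotation. The submitters' processing notes give versions 2.8.0 and 2.1.1 and the build mm9. No scaling between libraries is stated. The labels and the methods of the study name different library kits, so the strandedness of the libraries is uncertain. The labels' extraction text names DN NKT cells, so the sorted population rests on the other labels. The table lists 23234 features, of which 21665 matched a single gene of GENCODE vM1 on NCBIM37.

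Groups were compared on log2(FPKM + 1) with limma 3.58.1 in R 4.3.3 (lmFit, eBayes with a trend) on the 2 groups compared, two-sided, for the 10780 features that averaged 1 FPKM or more, with Benjamini-Hochberg adjustment over all of them and a threshold of 0.05. Tested on simulated data with 200 features changed by 1.5, the fit recovered 83% of them in Bcl11bm/m against wild-type (6.2% false calls), 89.5% in Bcl11bfl/fl:Cd4-Cre against wild-type (1.6%) and 89.5% between the mutants (2.2%). Intervals are 95% intervals of that fit.

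Depth was estimated from low FPKM values of genes with 1 transcript, of which 61.3 to 70.6% lay within 0.1 of a whole number of fragments, against 20% if spread evenly. It came to 10830000 to 45140000 fragments with the Cd4-Cre deletion, 2720000 to 4220000 in Bcl11bm/m and 3940000 to 6930000 in wild-type libraries, so that depth and the Cd4-Cre genotype cannot be told apart, while the other groups overlap in depth. Fragment numbers use the longest transcript less 200 bases, and floors are 3 fragments and cover counting error only. A listed 0 can be a failed estimate.

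The members and gene lists were chosen with earlier results of these data known. Genes named were all members, genes of the lists that passed the test with Ms4a1, Pax5 and Cd79a, the 3 listed neighbours on each side of Cxcr5 and Pou2af1, the 5 nearest profiles of each, Bcl11b and Zbtb7b. Sox13, Spib, Cd8a, Rag1, Cd79b, Cd22, Fcer2a, Vpreb3, Blnk, Tbx21, Il2rb, Stat5a, Stat5b, Prdm1 and Itgam were named after their values were seen. Some listed genes enter the counts and sums but are not reported here by name. The alternatives were leaving out each library in turn, quality weights, a replicate block, 1 fit over the 3 groups, quantile normalization or median-ratio scaling, a pseudocount of 0.1, and either no filter or one at 5 FPKM. Python 3.11.15 with pandas 2.3.3, numpy 2.4.6, scipy 1.17.1 and matplotlib 3.10.9 did the remaining work.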

Additional observations from a re-analysis of the deposited data

Results flagged for a closer look

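A sample far from the others was looked for among the 5 wild-type and among the 4 Bcl11bfl/fl:Cd4-Cre libraries for the members and the wider list, in 83 groups of values, of which chance flags about 1 in 20 (4.2). There were 7. In Bcl11bfl/fl:Cd4-Cre cells, Icos was low in replicate 1 (0.911 FPKM), Ascl2 was above 0 only in replicate 1 (0.0308 FPKM), and in replicate 3 Slamf1 was low (13.3 FPKM) and Ccr7 (6.07 FPKM) and Stat3 (70.7 FPKM) were high. In wild-type replicate 1 Slamf6 was low (32.4 FPKM) and Cd84 high (56.6 FPKM). The group of 3 Bcl11bm/m libraries was not examined in this way.

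The 2 mutants differed from each other in wider-list genes by limma's direct test, of which 6 are given. On the log2 scale, Bcl11bm/m was lower than Bcl11bfl/fl:Cd4-Cre for Slamf1 (-1.35, adjusted p = 0.0125) and higher for Cd28 (1.0, adjusted p = 0.0279), Lef1 (0.67, adjusted p = 0.0161), Tcf12 (0.82, adjusted p = 0.0111), Il2ra (3.37, adjusted p = 0.0121) and Tnfrsf14 (0.88, adjusted p = 0.00823).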

How the results depend on the processing

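For Bcl11bm/m against wild-type, the 1866 features called became 1189 at a mean of at least 5 FPKM, 3604 with library quality weights and 1021 to 2349 when a library was left out, for Bcl11bfl/fl:Cd4-Cre against wild-type the 1564 became 3176 with weights and 700 to 2678, and between the mutants the 1102 became 656 at 5 FPKM, 2173 with weights and 313 to 1121. Of the 8 members, the 3 called in Bcl11bm/m against wild-type became 1 at 5 FPKM, where fewer were tested, and 5 with weights, and 2 to 4 when a library was left out. The 2 called in Bcl11bfl/fl:Cd4-Cre against wild-type became 0 at 5 FPKM and 1 to 3 when a library was left out. The 0 called between the mutants became 1 with median-ratio scaling, quantile normalization, a single fit of 3 groups or weights, and 0 to 1 when a library was left out. The 12 wider-list calls in Bcl11bm/m became 19 with median-ratio scaling and 21 with weights, and 8 to 15 when a library was left out, the 9 in Bcl11bfl/fl:Cd4-Cre 5 to 13 and the 7 between the mutants 3 to 10 when a library was left out. The cause of these shifts was not tested. With a pseudocount of 0.1 the log2 difference of Cxcr5 was 9.20 and 6.94 and that of Pou2af1 in Bcl11bm/m 3.30.

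The replicate numbers did not pair the libraries (correlations of same-numbered libraries -0.211 to 0.152). With a replicate block over the shared numbers, which leaves out the unshared libraries, 293, 445 and 46 features and 4, 4 and 1 wider-list genes were called in the 3 comparisons, and Bcl6 in Bcl11bm/m had an adjusted p of 0.242. The Bcl11bm/m libraries had the lowest median depth, so low members such as Pdcd1, Btla and Ascl2 were measured least precisely there.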
